A study of Drosophila melanogaster with 2 samples.

Results

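Chromatin of the Drosophila melanogaster ovary carried 590 peaks of the zinc finger protein CG17801 inside introns of the X chromosome. They were chosen by position alone. The summit of the peak had to lie on the X, more than 250 bp from any annotated transcription start site (TSS), inside an annotated gene and in no annotated exon. The 590 were among 6723 peaks of the list that passed the authors' irreproducible discovery rate (IDR) threshold, which asks for agreement between replicates, among 1463 peaks on the X and among 2094 intronic peaks on all arms. Intronic sequence that met the same criteria is called qualifying intron here.

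Ovaries came from adult females, of unknown age, of a stable transgenic line (strain CG17801-GFP) made by site-specific recombination, in which CG17801 carried GFP at its C-terminus. ChIP-seq was done by pulling down chromatin with anti-GFP and sequencing the DNA, so that a peak marks where the fusion sat. The 2 samples formed 1 group and were biological replicates numbered 1 and 3, and both carried the fusion, so that flies without it were not analysed here. Whole ovaries hold germline cells and somatic follicle cells together, and the peaks are not divided between them. No other GFP fusion was compared, so sites that such fusions may have in common were not set apart.

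CG17801 belongs to the C2H2 zinc finger proteins with a zinc-finger-associated domain (ZAD), a family that expanded in insects and whose members bind DNA through the zinc fingers and pair through the ZAD. Introns of flies often hold enhancers and alternative promoters, and the long first introns of developmental genes are rich in them. Females carry a pair of X chromosomes, as they carry pairs of the autosomes.

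The sequences under the 8 strongest members show what the strongest sites look like. Each line gives the summit base with 50 bases on either side, read 5′ to 3′ on the forward strand of the reference (dm6), with any match to the motif panel described further on in capitals.
CG32772 (chrX:4910341-4910441): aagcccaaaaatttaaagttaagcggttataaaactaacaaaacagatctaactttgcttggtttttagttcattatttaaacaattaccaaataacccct
norpA (chrX:4324939-4325039): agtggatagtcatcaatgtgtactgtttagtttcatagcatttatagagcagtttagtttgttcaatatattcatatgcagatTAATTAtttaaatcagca
Tlk (chrX:3742173-3742273): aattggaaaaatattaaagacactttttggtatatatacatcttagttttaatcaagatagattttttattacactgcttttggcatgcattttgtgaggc
CHES-1-like (chrX:7706938-7707038): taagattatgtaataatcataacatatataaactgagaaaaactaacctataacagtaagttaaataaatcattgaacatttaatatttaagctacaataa
Tlk (chrX:3774404-3774504): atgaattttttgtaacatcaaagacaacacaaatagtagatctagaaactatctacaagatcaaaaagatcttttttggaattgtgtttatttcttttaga
CHES-1-like (chrX:7698374-7698474): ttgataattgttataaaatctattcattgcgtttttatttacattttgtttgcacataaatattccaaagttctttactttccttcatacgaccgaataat
CHES-1-like (chrX:7697017-7697117): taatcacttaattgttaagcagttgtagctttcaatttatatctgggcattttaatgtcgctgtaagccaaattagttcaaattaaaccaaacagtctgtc
arg (chrX:523466-523566): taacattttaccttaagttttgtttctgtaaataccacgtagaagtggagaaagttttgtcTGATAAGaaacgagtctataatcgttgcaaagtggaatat
These windows were 68.3% to 81.2% A+T. Of the 8 windows, that of norpA held a homeodomain word and that of arg a GATA word, and the other 6 held no word of the panel. The word of norpA lay near the 3′ end of its window, away from the summit.

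Another 4 members show words of the panel in their surroundings, again in capitals. The bif window holds a GAGA repeat, the Fim window an AP-1 word, the Cdc7 window a GATA word and the Stt3A window a DRE word.
bif (chrX:11686276-11686376): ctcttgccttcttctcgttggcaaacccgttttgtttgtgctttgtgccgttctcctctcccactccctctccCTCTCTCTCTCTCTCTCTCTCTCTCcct
Fim (chrX:17292149-17292249): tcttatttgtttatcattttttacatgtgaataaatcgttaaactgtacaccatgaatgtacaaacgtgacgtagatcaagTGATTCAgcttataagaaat
Cdc7 (chrX:6656178-6656278): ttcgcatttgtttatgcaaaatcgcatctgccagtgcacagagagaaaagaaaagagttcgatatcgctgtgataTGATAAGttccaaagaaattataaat
Stt3A (chrX:21053228-21053328): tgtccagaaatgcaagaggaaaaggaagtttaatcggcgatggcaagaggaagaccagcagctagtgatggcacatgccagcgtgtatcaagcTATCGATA
The bif window, with 46.5% A+T, and the Stt3A window, with 52.5%, were the poorest in A+T of the 12 printed. The bif peak, with a signal of 134, was also one of the weaker members.

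The strongest member lay in CG32772. The signal, which is the authors' value on an unstated scale and is compared only within a list, was 2980 for this peak in the IDR list, where it ranked 4 of 6723. Of the 30000 peaks of each replicate list, it was number 4 in replicate 1 and number 5 in replicate 3. Its summit (chrX:4910391) stood 1289 bp from the nearest TSS, in a first intron. The second member lay in norpA, the gene of the phospholipase C used in the light response of the eye, with a signal of 2298 and ranks of 6 and 13 in the replicates. The third lay in Tlk, the Tousled-like kinase that acts on chromatin assembly, with a signal of 1888 and ranks of 12 and 24. These members thus stood near the top of both replicate lists.

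Several of the next members clustered in the same genes. CHES-1-like, which encodes a forkhead transcription factor, held the members of signal 1527, 1389, 1175 and 1020. Tlk held a further member of signal 1497, whose ranks were 48 in replicate 1 and 35 in replicate 3. The 20 strongest members fell in 16 genes. Metabolic enzymes among them were arg, which encodes arginase, with a signal of 1159, and pdgy, which encodes an acyl-CoA synthetase, with 1152. The cell polarity gene sdt had a signal of 1106 and CG14434 one of 1105. The arg summit lay 290 bp from a TSS of lncRNA:enrr, where elav also starts, and 14081 bp from any TSS of arg. That of CG14434 lay 487 bp from a TSS of CG43736 and 3793 bp from one of CG14434. For 17 of the 20 the nearest TSS belonged to the host. Transcription factors among the hosts were Atf3, a bZIP protein, with 1067, and Mnt, the partner of Max that opposes Myc, with 1018. Signalling genes were Dok, a docking adaptor, with 985, and Raf, the kinase of the receptor tyrosine kinase pathway, with 937. Also among the 20 were prage, which acts in the decay of maternal RNA, with 946, Sxl, the switch gene of female identity, with 939, and tay with 930. Every one of the 20 was matched in both replicates, at ranks of 4 to 270 in replicate 1 and 5 to 158 in replicate 3. Of the 20, 15 lay in the first intron of some transcript, and 16 had a promoter peak at a TSS of the same host.

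**Figure D1:**
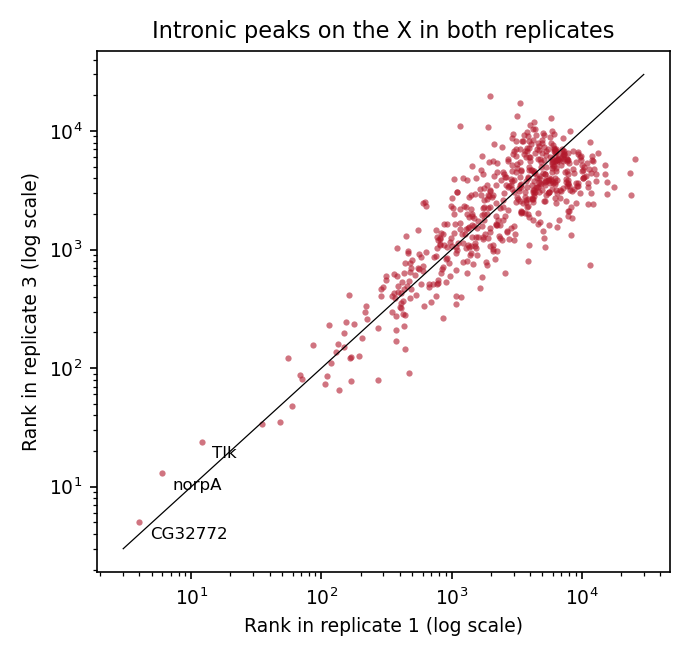
Rank of each intronic peak on the X in replicate 1 (x axis, log scale) and replicate 3 (y axis, log scale), for the 564 members with a matched summit in both lists; 1 is the highest signal and the line marks equal ranks. CG32772, norpA and Tlk sit at the lower left in both, and the scatter widens towards the weak peaks.

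Nearly all members were seen in each replicate alone. A summit within 100 bp was present for 572 of 590 in the replicate 1 list (96.9%) and for 582 in the replicate 3 list (98.6%). Both lists held one for 564 members, which is 95.6% (95% Wilson interval over peaks 93.6 to 97.0). Replicate 1 alone matched 8, replicate 3 alone matched 18, and 0 members were unmatched in both. The IDR list was made from these replicate lists, so this matching is a description of the members and no independent check. The share in both was 93.7% (92.3 to 94.8) for autosomal intronic peaks and 94.4% (92.4 to 95.9) for promoter peaks on the X, with overlapping intervals. Members kept similar ranks in the replicates, with Spearman's rho of 0.74 over the matched members, against 0.63 for autosomal intronic peaks and 0.60 for promoter peaks on the X. These correlations run over peaks of the same libraries and are given as a description. The median distance from the member to its match was 18 bp for replicate 1, and for replicate 3 it was 10 bp. The widest gaps in rank named here were at members with signals under the member median of 195, though not only at the weakest. A member in Mnt of signal 175 ranked 25911 in replicate 1 and 5792 in replicate 3. A member in CG3726 of signal 128 ranked 23825 and 2874, and a member in l(1)G0289 of signal 153 ranked 23528 and 4446.

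Members tended to be stronger than other intronic peaks. Their signal had a median of 195 (quartiles 148 and 332), beside 174 (137 and 268) for autosomal intronic peaks, 183 for promoter peaks on the X and 180 for the whole IDR list. Exonic peaks on the X came close, with a median of 191, while intergenic peaks on the X had 160. Intronic peaks on 2R had 185, the highest of the autosomal arms. Among the 672 strongest peaks of the IDR list stood 90 members, which is 15.3% of the members, beside 10.4% of autosomal intronic peaks and 9.64% of promoter peaks on the X. Of the 20 strongest intronic peaks of the genome, 8 were on the X. The X held 23 of the 50 strongest and 40 of the 100 strongest. The strongest intronic peak of all, with a signal of 4011, was autosomal. No test was made of these differences, since the peaks of a list come from the same libraries.

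The X held more intronic peaks than its share of intron sequence. It carried 28.2% of the intronic peaks (26.3 to 30.1) on 19.2% of the qualifying intron, 10.6 Mb beside 44.5 Mb on the autosomes. Density was 55.5 peaks per Mb on the X. It was 37.9 on 2L, 34.2 on 2R, 35.0 on 3L, 31.3 on 3R and 3.33 on chromosome 4, and 33.8 over the autosomes together. The ratio of X to autosomes was 1.64 (1.49 to 1.80). The interval treats peaks as independent, which neighbouring peaks are not, and covers peak number only.

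Part of the gap lay in pericentric sequence and chromosome 4. Leaving them out kept 1500 of the 1504 autosomal peaks, on 37.1 Mb. The densities were then 56.8 per Mb on the X, 39.0 on 2L, 42.7 on 2R, 41.6 on 3L and 39.2 on 3R. The ratio fell to 1.40 (1.28 to 1.54). Both replicates placed the X above every large autosomal arm. When each was cut to its 6723 strongest peaks, replicate 1 had 56.1 per Mb on the X and at most 43.1 on an autosomal arm. Replicate 3 had 59.6 on the X and at most 44.8 on an autosomal arm, in each case 2R.

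**Figure D2:**
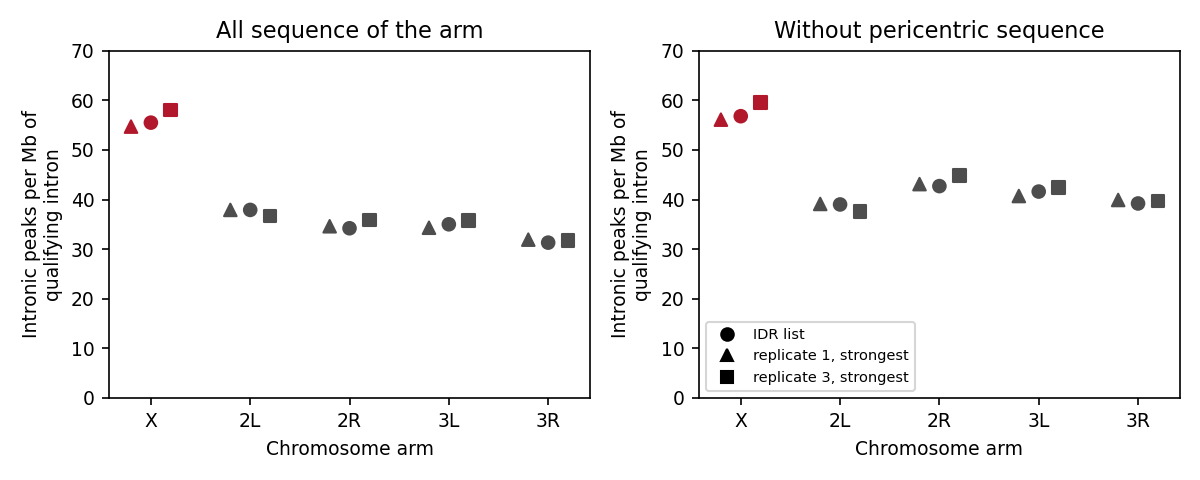
Intronic peaks per Mb of qualifying intron on the X (red) and the large autosomal arms (grey), over all sequence of the arm (left) and without pericentric sequence (right). Circles are the IDR list, triangles and squares the strongest peaks of replicates 1 and 3; in each list and panel the X lies above the other arms, by less in the right panel.

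Promoter peaks showed little of this difference, pericentric sequence included. The density of promoter peaks on the X, per Mb within 250 bp of a TSS, was 1.09 times that on autosomes (1.00 to 1.18), from 674 and 3169 peaks. For peaks in exons outside promoters the ratio was 2.34 (1.84 to 2.97), from 103 and 192 peaks, and for intergenic peaks 1.42 (1.14 to 1.78), from 96 and 395. Seen from the X, 40.3% of its 1463 peaks were intronic (37.8 to 42.9), beside 28.6% of the 5260 peaks on autosomes (27.4 to 29.8).

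The higher density on the X was seen among the strong peaks. Among the first 5000 peaks of the pooled list, made by the authors from both replicates, 30.6% of intronic summits were on the X. The share was 22.9% at ranks 5001 to 10000, and between 19.0% and 20.7% in the 4 further sets of 5000. Without pericentric sequence, the ratio of X to autosomal density was 1.57 in the first set, 1.07 in the next and 0.853 to 0.945 in the rest. Among promoter summits the X held 17.6% in the first set and 15.9% in the last. Over all 30000 peaks the ratio for introns was 1.16 in replicate 1 and 1.18 in replicate 3, pericentric sequence included.

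**Figure D3:**
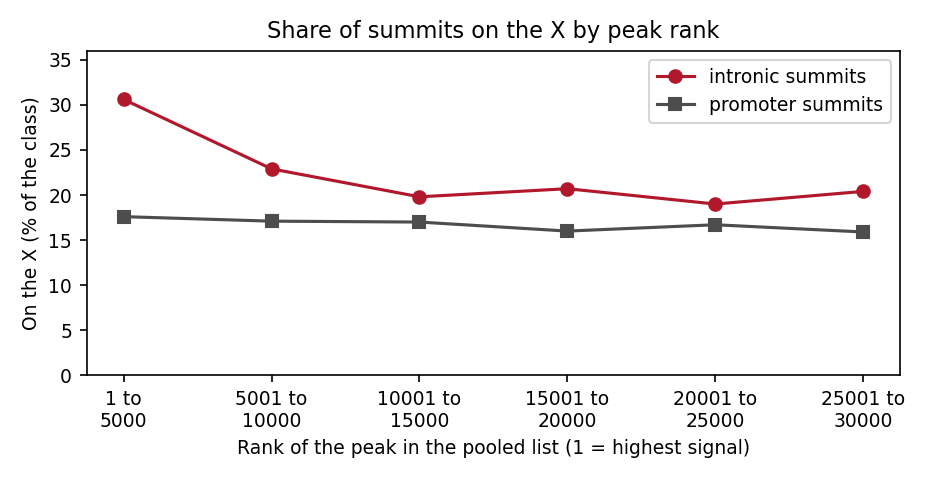
Percentage of intronic summits (red circles) and promoter summits (grey squares) that lay on the X, for consecutive sets of 5000 peaks of the pooled list ordered by signal. The intronic share is 30.6% in the strongest set and 20.4% in the weakest, and the promoter share stays between 15.9% and 17.6%.

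Most members lay a few kilobases from a TSS. The distance from summit to nearest TSS had a median of 2036 bp (quartiles 866 and 4585) and reached 43535 bp. For autosomal intronic peaks the median was 1662 bp. The nearest TSS belonged to the host gene for 452 members (76.6%) and to another gene for 138. Density declined with distance on the X and on the autosomes. It was 159 per Mb on the X and 97.5 on autosomes at 251 to 500 bp, 61.0 and 31.9 at 2001 to 5000 bp, and 17.3 and 9.51 beyond 10000 bp. Without pericentric sequence the ratio of X to autosomes was 1.62, 1.84 and 1.12 in these same bins, and 1.40 to 1.48 in the other 3. The nearness of the ratio to 1 in the farthest bin, which rests on 54 members, stood beside a ratio of 1.82 with pericentric sequence included.

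**Figure D4:**
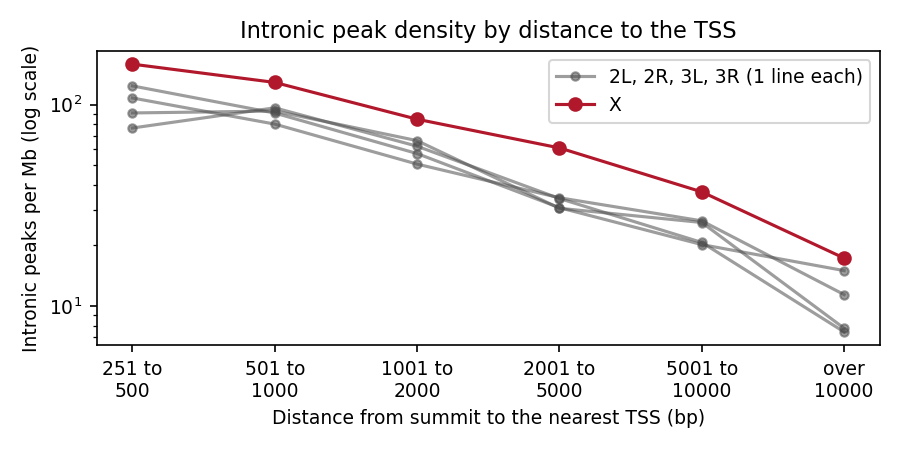
Intronic peaks per Mb of qualifying intron (log scale) by distance from the summit to the nearest TSS, for the X (red) and each large autosomal arm (grey), pericentric sequence included. The X line runs from 159 to 17.3 per Mb and lies above every autosomal line in each bin.

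First introns held most members. A first intron of at least 1 transcript contained 421 of the 590 (71.4%, 67.6 to 74.9), while first introns made up 49.1% of the qualifying bases on the X. This gave 80.7 members per Mb of first intron and 31.2 per Mb of other intron. Autosomal introns showed the same order, at 57.5 and 15.4 per Mb, with 74.3% of peaks (72.1 to 76.5) in first introns on 43.7% of the bases. The introns that held members had a median length of 7628 bp, and 245 members lay in introns of at least 10000 bp. With each intron divided in 3 equal stretches, 250 members fell in the 5′ stretch, 203 in the middle and 137 in the 3′ stretch. Intron order and distance to the TSS were not separated.

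The rule cut through a continuous set of distances. The members nearest to the limit were in Moe at 254 bp with a signal of 264, in pdgy at 258 bp with 1152 and in DIP-alpha at 260 bp with 274. Just outside it, and not counted, were intronic summits in lncRNA:CR45082 at 246 bp with 206, in CG12535 at 245 bp with 234 and in CG32772 at 244 bp with 221.

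Members were unevenly spread along the chromosome and often came in groups. The median distance to the nearest other member was 1893 bp, and 464 (78.6%) had another within 10000 bp. In all, 16 members shared their peak interval with another, as 8 intervals with more than 1 summit. Per Mb of qualifying intron, the 1 Mb stretch from 11 to 12 Mb held 111 members and that from 13 to 14 Mb held 93.5, while the stretch from 20 to 21 Mb held 5.26. Beyond 22 Mb, where the pericentric sequence of the X begins, 4 members were found. A promoter peak lay within 5000 bp of 249 members (42.2%). No baseline was computed for these distances, so grouping beyond that of the introns themselves cannot be read from them.

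The members fell in 258 genes, 14.0% of the 1847 X genes that have any qualifying intron. Protein-coding genes accounted for 245 of them, 14.3% of 1714. A single member was held by 122 genes and 2 members by 48, while the 88 genes with 3 or more held 394 members (66.8%). Because genes overlap, 62 members lay in more than 1 gene and count for each.

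Length of intron went with holding a member. Hosts had a median of 8.88 kb of qualifying intron, and other X genes 0.353 kb. Of X genes with under 2 kb, 2.71% held a member, and of those with 20 kb or more, 52.1% (44.0 to 60.0) did. Among autosomal genes these shares were 2.23% and 39.1% (35.2 to 43.1). Between 5 and 10 kb, 45.8% of X genes (37.0 to 54.7) and 28.0% of autosomal genes (24.4 to 32.0) held an intronic peak. Between 2 and 5 kb the shares were 25.4% (19.8 to 32.0) and 19.4% (16.9 to 22.2), and between 10 and 20 kb they were 44.0% and 34.2%. The share was thus higher on the X in all 5 classes of intron length, with overlapping intervals under 5 kb and between 10 and 20 kb. Genes in pericentric sequence and on chromosome 4 are included in these shares, and the difference without them was not computed.

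Mnt held the most members, 16, over 23.5 kb. Their signals ran from 122 to 1018 with a median of 194, all 16 were matched in both replicates, and 12 lay in a first intron. Tlk held 14 members over 58.0 kb, with signals of 161 to 1888. The 14 members of CHES-1-like lay within 16.2 kb, all in first introns, with signals of 121 to 1527, and 5 of them were among the 672 strongest IDR peaks. Per 10 kb of qualifying intron this was 8.33 members in CHES-1-like, 6.48 in Mnt and 2.49 in Tlk. Pdcd4, a regulator of translation, had the most per length of the 15 named hosts, 10.9 per 10 kb, from 7 members.

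The other hosts named for their number of members covered several functions. Smr, which encodes a nuclear corepressor, held 12, and 6 of these also lay in another gene. Raf held 10, with signals of 192 to 937 and 0 in a first intron. Drak, which encodes a kinase related to death-associated kinases, held 10 with a highest signal of 339. The long non-coding gene lncRNA:CR44357 held 12 and CG1677 held 11. These genes overlap, and 11 members of each lay in another gene too. The non-coding lncRNA:CR44999 held 9. The juvenile hormone receptor gene gce, the RNA decay factor gene Tis11, the nuclear receptor gene Hr4 and Moe, which encodes the membrane-to-actin linker Moesin, held 7 each, and prage held 6.

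Promoters of host genes carried a peak more often than other promoters. A summit within 250 bp of a TSS was found for 145 of 258 hosts (56.2%, 50.1 to 62.1) and for 464 of 1589 other X genes with qualifying intron (29.2%, 27.0 to 31.5). The order was the same in each class of intron length, from 57.1% and 30.8% under 2 kb to 59.2% and 11.4% at 20 kb or more. Autosomal hosts had promoter peaks in 63.0% and other autosomal genes in 30.7%. In 103 of the 145 hosts with both kinds of peak (71.0%), the strongest member exceeded the strongest promoter peak. Genes with more TSSs had more chances of a promoter peak, and TSS number was not matched. The strongest of several members is compared here, which favours the members. In Tlk the values were 1888 and 310, and in CHES-1-like 1527 and 458, while in mamo the promoter peak was the stronger, 1382 beside 512.

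Gene lists for the X place the hosts among functions of the ovary and of other tissues. Each count is of genes with a member among the listed genes with qualifying intron, to be read against the 14.0% of all such X genes and against the intron length of the list. Of 21 genes of oogenesis and maternal supply, 5 held a member (23.8%, median intron 0.491 kb). These were Sxl with a highest signal of 939, egh, a glycosyltransferase of follicle cell and oocyte signalling, with 467, the ecdysone-response factor gene br with 355, the bromodomain gene fs(1)h with 244 and the germline translation regulator mei-P26. The germline genes ovo and otu and the yolk protein genes Yp1, Yp2 and Yp3 held 0 members, and among these ovo alone had a long stretch of qualifying intron, 14.5 kb.

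Genes of the nervous system held members too. Of 35 neuronal, synaptic and sensory genes, 13 held one (37.1%, median intron 29.4 kb). They included norpA with a highest signal of 2298, the transcription factor gene NFAT with 858, the kinase gene mnb with 512 and the adhesion gene Nrg with 488. Among channel genes of the list, Ork1, a potassium channel gene, held 1 with a signal of 174 and the gap junction gene ogre held 1 with 428, while para, Sh, cac and eag held 0. These channel genes were picked after their values were seen.

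Signalling genes held members in 7 of 17 cases (41.2%, 3.09 kb). Raf led with 937, followed by csw, the phosphatase of the same pathway, with 442, the receptor gene N with 336 and the BMP antagonist gene sog with 334. The Wnt effector arm, the JAK kinase hop and the ligands upd1, upd2 and upd3 held 0. Their qualifying intron came to 0.545 to 5.14 kb a gene, beside 12.2 to 35.8 kb in Raf, csw, N and sog.

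Transcription factor genes held members in 8 of 23 cases (34.8%, 14.5 kb). Hr4 had a highest signal of 594, CrebB, the cAMP-response factor, one of 580, Smr one of 540 and mamo, a germline zinc finger gene, one of 512. The dosage compensation genes mof, lncRNA:roX1 and lncRNA:roX2 were listed with chromatin genes but had no qualifying intron, so none of them is counted. The chromatin genes held members in 6 of 15 cases (40.0%, 1.68 kb). Beside Tlk these were led by the Polycomb gene ph-p with 816, the acetyltransferase gene nej with 527 and the deacetylase gene HDAC4 with 393. Genes of the cytoskeleton, adhesion and polarity held members in 12 of 27 cases (44.4%, 17.0 kb). The list as drawn up included tay, whose place among these functions is uncertain, with the highest signal, 930. Next were 733 in the fimbrin gene Fim, 591 in dlg1, a septate junction scaffold, and 574 in kirre, an adhesion receptor of myoblasts. The share of each list was above 14.0%, but the lists also had more intron than the 0.353 kb median of genes without a member. Set beside X genes in the length class of the list's median, the neuronal list had 37.1% against 52.1%, the transcription factor list 34.8% against 44.0% and the cytoskeleton list 44.4% against 44.0%, so that none of these stood clearly above its class. The signalling list had 41.2% against 25.4%, and the oogenesis and chromatin lists, with medians under 2 kb, had 23.8% and 40.0% against 2.71%. Every oogenesis gene with a member, and every such chromatin gene except ph-d, had more than 2 kb of qualifying intron. Every signalling gene with a member had at least 12.2 kb, except rho-4 with 3.09 kb. Neither the 25.4% nor the 2.71% is therefore matched to the length of these hosts. Each list mixes short and long genes, and nothing particular to a list is read from these shares. A gene could stand in more than 1 list.

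The windows under the members were rich in A+T. The window from 50 bases before to 50 after the summit held 65.1% ± 8.98 A+T (SD, n = 590 windows), beside 60.3% ± 9.49 in windows 500 bp away on either side and 60.2% ± 9.30 in consecutive windows tiled over the qualifying intron of the X. The window of the member exceeded the mean of its own flanks in 400 of 590 cases (67.8%). Autosomal intronic peaks had 64.3% ± 9.41 and promoter peaks on the X 59.4% ± 10.6. Averaged over members, A+T rose from 60.4% at 100 bp before the summit to 65.9% at the summit and was 59.9% at 100 bp after it. The value went with signal among the members. In 4 groups ordered from strong to weak it was 67.6%, 65.3%, 64.3% and 63.3%, with SDs of 8.12 to 9.63.

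**Figure D5:**
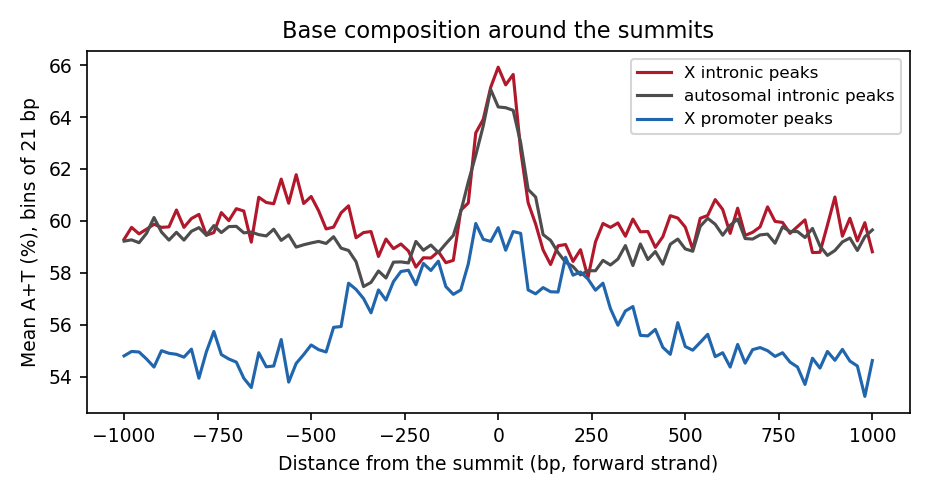
Mean A+T content in bins of 21 bp by distance from the summit on the forward strand, for the 590 intronic peaks on the X (red), the 1504 autosomal intronic peaks (grey) and the 674 promoter peaks on the X (blue). The members reach 65.9% at the summit, close to the autosomal intronic peaks, and both stand above the promoter peaks.

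The stronger members also lay closer to a TSS. The median distance was 1460 bp in the strongest of the 4 groups and 2216, 2216 and 2546 bp in the others. The share in both replicates was 99.3% in the strongest group and 92.6% in the weakest.

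No word of the motif panel separated the members from autosomal intronic peaks. The panel of 16 was searched on both strands in these windows, as DRE (TATCGATA), the GAGA factor word (GAGAGAG), the M1BP core (GGTCACAC), the Zelda word (CAGGTAG), the E-boxes CACGTG and CAGCTG, AP-1 (TGANTCA), the GATA factor word (TGATAAG), the ecdysone receptor word (AGGTCA), STAT (TTCNNNGAA), the Su(Hw) core (GCATACTT), the homeodomain word (TAATTA), runs of 8 A, AT repeats of 4 units, CA repeats of 5 units and CAG repeats of 3 units. The ecdysone receptor word can overlap the M1BP core. In 2-sided Fisher's exact tests of X against autosomal intronic windows, 0 of 16 words (0.0%) passed an adjusted p of 0.05 (Benjamini-Hochberg over the panel), and 0 had an unadjusted p under 0.05. The smallest adjusted p was 0.727. The test takes peaks as units, not animals, and a p above the threshold does not show that the shares are alike.

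Shares of single words were low. Runs of 8 A were in 11.0% of members (8.74 to 13.8), beside 9.64% of autosomal intronic windows and 10.6% of X intron tiles. The homeodomain word was in 9.15% (7.08 to 11.8), beside 8.91% and 7.23%. AP-1 was in 3.90% (2.61 to 5.78), beside 2.86% and 2.25%. GAGA was in 3.05% (1.94 to 4.77), beside 4.32% and 1.76%, and GATA in 2.20% (1.29 to 3.73), beside 3.46% and 1.39%. These intervals overlap those of the autosomal windows for each word. For runs of 8 A the surroundings differed, with 10.6% of X intron tiles, 13.2% of X flanks and 6.21% of autosomal intron tiles holding one. The test compared raw shares and made no allowance for this.

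Some words were rarer under the members than under promoter peaks on the X. DRE, the word of the replication-related element factor, was in 3 members (0.508%) and in 0.244% of X intron tiles, but in 6.68% of promoter peaks on the X. The M1BP core was in 0 of 590 members and in 3.56% of promoter peaks on the X. The upper Wilson bound for the members was 0.647%, and the limit from 3 counts was 0.508%. The E-box CAGCTG was in 2.37% of members, 3.40% of tiles and 7.27% of promoter peaks on the X. GAGA did not follow this order, with 3.05% of members and 2.82% of promoter peaks on the X. These differences from promoter peaks were not tested. In total 201 members (34.1%) held at least 1 word of the panel, as did 34.5% of X intron tiles.

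The 8-base words most in excess over the tiles were made of A and T with few other bases. ATTTAAAA was in 42 members (7.12%), in 2.63% of X intron tiles, in 2.80% of flanks and in 4.12% of autosomal intronic windows. AAAAGAAA was in 8.31% of members, 3.66% of tiles, 4.24% of flanks and 7.18% of autosomal intronic windows. These words were picked for their excess, and windows rich in A+T hold more of them, so the values are a description without a test.

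Repeat-masked sequence lay under about as many members as its share of intron. Of member summits 26.9% (23.5 to 30.7) stood on soft-masked bases, the repeats and low-complexity stretches marked in the reference, which made up 23.4% of the qualifying intron of the X, just below that interval. Inside the 912 annotated transposons of the X lay 0 members, and 14 lay within 1000 bp of one. The share of qualifying intron in or near a transposon was not computed, so avoidance of transposons cannot be read from these counts.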

How the data were processed

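The deposited files are peak lists (narrowPeak, dm6) for 2 replicates, with a pooled and an IDR list. Per the file headers, which here are text descriptions deposited with the samples, each replicate list came from its alignment and a control, and the replicate and pooled lists gave the IDR list. No source used here names the aligner or caller. The signal of each peak is the authors' value, as deposited, on an unstated scale. Fragments were 200 to 800 bp, per the labels. Read totals are unknown, so depth and its precision cannot be stated, and the control was not used here.

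Summits were placed on the Ensembl annotation (release 115, transposons left out), on the same assembly, and sequences came from the RefSeq genome of that assembly. Shares carry 95% Wilson intervals over peaks. The ratio of X to autosomes carries an interval derived from that of the X share. Motifs were tested with Fisher's exact test, adjusted by Benjamini-Hochberg. The test was checked on simulated random windows with planted DRE words, where it called the planted word. That check does not measure its power for differences as small as those seen here. Pericentric sequence on the X began at 22 Mb. Named genes are the 20 strongest members, up to 15 hosts with 3 or more members, up to 4 hosts per list, members nearest to the limit, and genes chosen after their values were seen (bif, Cdc7 and Stt3A for a motif, CG3726 and l(1)G0289 for their ranks, and list genes without a member or beyond the 4). A gene named by this rule is not reported here. Of the listed genes, dec-1, Sno and su(s) were not matched by name and Cbl is not on the X. Members and lists were chosen with earlier results of these data known. Tools were statsmodels 0.14.6, scipy 1.17.1, matplotlib 3.10.9, pandas 2.3.3, numpy 2.4.6 and Python 3.11.15. Alternatives varied the TSS zone, gene types, summit position, peak strength, replicate, match distance and motif window.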

Additional observations from a re-analysis of the deposited data

How the results depend on the processing

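Restricting the IDR list to its 3361 strongest peaks left 327 members, an X share of intronic peaks of 31.4%, a density ratio of X to autosomes of 1.91 and 9.69% of X genes holding a member. Without pericentric sequence and chromosome 4, an alternative chosen after seeing the data, the ratio was 1.40. The share of members matched in both replicates was 78.0% within 50 bp, 99.0% within 200 bp, 92.7% when 50% of the member had to be overlapped, and 71.2% against only the strongest peaks of each replicate. The causes were not tested. From each replicate alone, members numbered 582 to 618, the X share ran from 27.8% to 28.9%, the ratio from 1.61 to 1.70, the first-intron share from 72.0% to 72.5%, and list genes with a member from 50 to 53. TSS zones of 100 to 1000 bp gave 413 to 663 members. Of 114 alternatives over 22 results, 105 stayed within the limits set for a change. These limits were a set fold change for a count, the main interval for a share or ratio, and an unchanged call for a motif difference. The motif test called 0 words under each of its 6 alternatives. All 42 uncalled differences for 7 words were therefore among the 105, although 7 of them changed sign. No paired analysis was possible because the replicates form 1 group. Read depth is unknown, and 2 replicates of 1 line, with peaks from the same libraries as units, limit every interval.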
